A study of Mus musculus with 9 samples.

Results

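The constitutive proteasome genes were taken by symbol: Psma1 to Psma7, Psmb1 to Psmb7, Psmc1 to Psmc6, Psmd1 to Psmd14, Psmg1 to Psmg4, Psme3 and Psme4. All 40 were among the 27998 genes of the deposited matrix, and each had 1 row in it. They were followed in 1 single-cell library of ascites, the fluid that collects in the peritoneal cavity, of mice bearing ID8-Def29/Vegf tumors. The labels give the genotype of the mice as B6_WT (wild type), name no treatment, age or number of mice, and give 1 sample, so every value below describes 1 condition without replicates. ID8-Def29/Vegf is a mouse ovarian cancer line engineered to express a defensin together with Vegf, a growth factor for blood vessels. A further 8 bulk libraries of that line in culture, 4 given the iron chelator Deferiprone for 12 h and 4 given Vehicle, belong to the series. Column names of their table could not be tied to the samples, and that table was not analysed here.

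The proteasome is the protease that breaks down proteins tagged with ubiquitin. Its 20S core is a barrel of alpha and beta rings, with the cutting sites on the beta subunits made from Psmb5, Psmb6 and Psmb7. A 19S cap of ATPase (Psmc) and non-ATPase (Psmd) subunits binds the tagged protein, unfolds it and feeds it into the barrel. The Psmg genes encode chaperones that assemble the core, while Psme3 and Psme4 encode caps that do not need ubiquitin. In immune cells, and in others after interferon, the inducible subunits Psmb8, Psmb9 and Psmb10 take the places of Psmb5, Psmb6 and Psmb7 and form the immunoproteasome. The transcription factor Nfe2l1 raises proteasome genes together when proteasome activity is short.

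Cells were kept with at least 500 UMIs (unique molecular identifiers, 1 per captured transcript), at least 200 genes and at most 15% mitochondrial UMIs, which left 6442. Tumour-like cells, 3660 in number, had at least 3 UMIs of Krt8, Krt18, Krt19, Wt1 and Upk3b together and at most 1 of C1qa, C1qb and C1qc. Macrophages, 1076 in number, had at least 3 UMIs of the C1q genes and at most 1 of the keratin set. Markers outside these rules followed the labels: Csf1r stood at 1.40 CPM (UMIs of the gene scaled to 1000000 UMIs of the class) in tumour-like cells and 369 CPM in macrophages, and Lgals2 at 458 CPM in tumour-like cells and 40.4 CPM in macrophages. Of the other epithelial and mesothelial markers, Upk1b stood at 41.1 CPM in tumour-like cells and 3.15 CPM in macrophages, and Krt7 at 24.0 CPM in tumour-like cells and 2.62 CPM in macrophages. Msln at 10.4 CPM, Muc16 at 4.95 CPM and Epcam at 1.20 CPM were low in tumour-like cells, and Cdh1 had no UMI there. These markers do not separate implanted cells from host mesothelium. The median depth was 5007 UMIs in tumour-like cells and 1639.5 UMIs in macrophages, and no macrophage had over 6000 UMIs, against 1313 tumour-like cells. Summed over the whole fibroblast list, 4 genes, the level was 388 CPM in tumour-like cells, mostly Dcn at 359 CPM, and 33.1 CPM in macrophages. Haemoglobin genes summed to 1667 CPM in tumour-like cells and 11641 CPM in macrophages, while the T cell, B cell and plasma cell lists each summed to at most 27.3 CPM in either class and the natural killer cell list had no UMI. The part of these in the results was not tested. Estimated from markers of the other class, the free RNA share was 5.21% in tumour-like cells and 13.1% in macrophages. In the free RNA itself, taken from barcodes of 1 to 50 UMIs, the 40 genes stood at 4862 CPM, near their level in cells.

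Promoters are shown of the catalytic genes Psmb5 and Psmb6, and of Psmc1 and Psmc2, the ATPase genes with the lowest and highest tumour-like over macrophage ratio. These 4 promoters belong to genes on which the results turn. Each runs from 250 bases before to 50 after the RefSeq start on GRCm38.p6, 5′ to 3′ on the gene's strand. Capitals mark TGACNNNGC, the core of the antioxidant response element through which Nfe2l1 and Nfe2l2 act, or the CCAAT box, on either strand. Psmb5 lies at chr14:54617946-54618245 on the minus strand, Psmb6 at chr11:70525107-70525406, Psmc1 at chr12:100109952-100110251 and Psmc2 at chr5:21785025-21785324, these on the plus strand. A further RefSeq promoter of Psmc2, at chr5:21786497-21786796, holds neither TGACNNNGC nor CCAAT and is not shown.
Psmb5: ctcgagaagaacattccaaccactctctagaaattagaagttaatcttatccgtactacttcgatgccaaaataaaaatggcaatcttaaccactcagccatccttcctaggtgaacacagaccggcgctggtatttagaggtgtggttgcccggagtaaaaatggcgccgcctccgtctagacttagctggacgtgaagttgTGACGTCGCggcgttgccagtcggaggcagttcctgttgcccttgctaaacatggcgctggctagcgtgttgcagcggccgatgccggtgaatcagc
Psmb6: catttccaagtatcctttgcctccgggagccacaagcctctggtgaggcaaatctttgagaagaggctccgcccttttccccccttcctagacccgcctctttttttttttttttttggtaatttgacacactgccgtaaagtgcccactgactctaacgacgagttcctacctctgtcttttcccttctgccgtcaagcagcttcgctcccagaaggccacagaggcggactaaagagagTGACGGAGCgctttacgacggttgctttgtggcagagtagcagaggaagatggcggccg
Psmc1: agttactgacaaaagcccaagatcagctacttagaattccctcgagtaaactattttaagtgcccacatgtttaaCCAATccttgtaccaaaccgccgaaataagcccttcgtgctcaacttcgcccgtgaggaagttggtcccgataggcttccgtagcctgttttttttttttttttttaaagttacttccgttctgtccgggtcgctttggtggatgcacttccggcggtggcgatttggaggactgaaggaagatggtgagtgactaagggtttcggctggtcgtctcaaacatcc
Psmc2: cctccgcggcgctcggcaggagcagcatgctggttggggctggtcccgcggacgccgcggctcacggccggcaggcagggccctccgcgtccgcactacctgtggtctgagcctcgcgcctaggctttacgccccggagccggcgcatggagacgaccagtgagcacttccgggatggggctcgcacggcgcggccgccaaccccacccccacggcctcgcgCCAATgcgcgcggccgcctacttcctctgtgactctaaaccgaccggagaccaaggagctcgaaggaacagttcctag
Of the 40 members, 33 had a promoter in the table, 35 promoters in all. TGACNNNGC was in 6 of the 35 (17.1%) and in 12.4% of all 32851 promoters. The members that held it were Psmb5, Psmb6, Psmc6, Psmd9, Psmd12 and Psme4. CCAAT was in 34.3% of the members' promoters and in 37.4% of all. The shares were near those of all promoters, and a match is a description of letters, not a site.

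As a whole, the constitutive proteasome took nearly the same share of the transcripts in both classes. The 40 genes held 91785 UMIs in tumour-like cells and 8258 UMIs in macrophages. This was 4591 CPM (4561 to 4620) in tumour-like cells and 4333 CPM (4240 to 4427) in macrophages, a ratio of 1.06 (1.04 to 1.08). Intervals here and below are exact 95% intervals and cover counting error only; with 1 library no test between classes could be made. In cells of 500 to 2000 UMIs the summed level was 4688 CPM in 257 tumour-like cells and 4240 CPM in 759 macrophages. In cells of 2000 to 4000 UMIs it was 4652 CPM in 889 tumour-like cells and 4411 CPM in 303 macrophages. In cells of 4000 to 6000 UMIs it was 4633 CPM in 1200 tumour-like cells and 4925 CPM (4390 to 5507) in 14 macrophages, so there the tumour-like level was the lower one, inside the interval of macrophages. Up to 20000 UMIs, the summed level of tumour-like cells stayed between 4511 and 4688 CPM in all 5 depth ranges.

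At the same depth, cells of both classes held similar numbers of proteasome UMIs. In cells thinned to 2000 UMIs, the 40 genes had a median of 9 UMIs in 3403 tumour-like cells, with quartiles of 6 and 12, and a median of 9 UMIs in 317 macrophages, with quartiles of 7 and 11. The thinning left out 257 tumour-like cells and 759 macrophages that were shallower. The SD over cells was 3.94 UMIs in tumour-like cells and 3.45 UMIs in macrophages, where counting alone would give 3.03 and 2.99. Without thinning, the medians were 44.2 UMIs per 10000 in tumour-like cells and 41.9 UMIs per 10000 in macrophages.

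**Figure D1:**
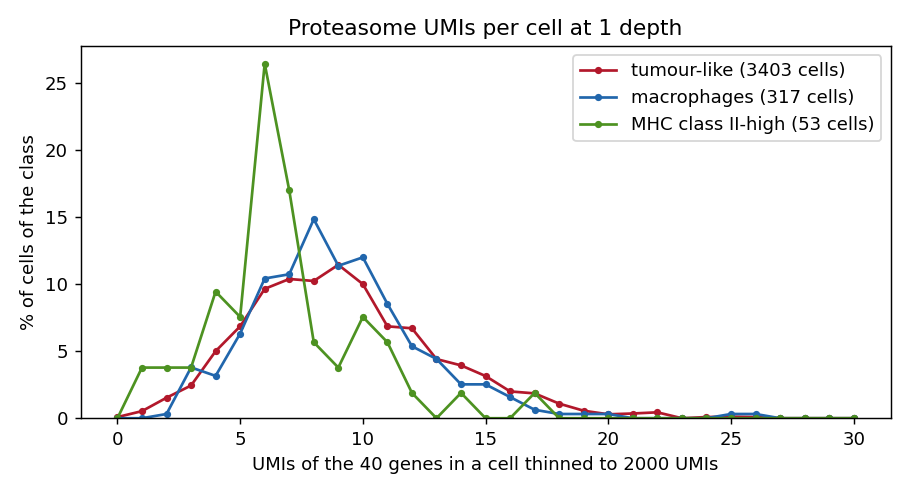
UMIs of the 40 genes in single cells thinned to 2000 UMIs (x axis) against the percentage of cells of each class (y axis), with 1 line for each class. The curves of tumour-like cells and macrophages lie over each other around a median of 9 UMIs, and that of MHC class II-high cells, from 53 cells, lies lower around a median of 6.

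Single members differed more than the sum did. Of the 36 members whose mean over both classes reached 20 CPM, 5 (13.9%) were over 1.5-fold higher in tumour-like cells: Psmc2, Psmd1, Psmd4, Psmd11 and Psmg3. Among all 4003 genes at that level, 38.4% were. The 3 members over 1.5-fold lower in tumour-like cells (8.33%) were Psma6, Psmc1 and Psmd8, against 21.1% of all genes. The remaining 28 lay within 1.5-fold. Folds for these calls were computed with 5 CPM added to each level. The median log2 ratio was 0.10 over the members tested and 0.31 over all genes, and the quartiles were -0.15 and 0.33 for the members, against -0.41 and 0.97 for all genes. Taken relative to the median of all genes, the split was 2 higher (Psmc2 and Psmg3) and 6 lower (Psma3, Psma6, Psmb2, Psmc1, Psmd6 and Psmd8), against 27.3% and 28.2% of all genes. With the limit at 2-fold, Psmc2 and Psmg3 were higher and 0 members lower, against 24.3% and 15.8% of all genes. Psmd5, Psmg1, Psmg2 and Psme4 had a mean under 20 CPM and were not counted; their levels were between 12.2 and 18.2 CPM in tumour-like cells and between 9.97 and 16.8 CPM in macrophages.

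**Figure D2:**
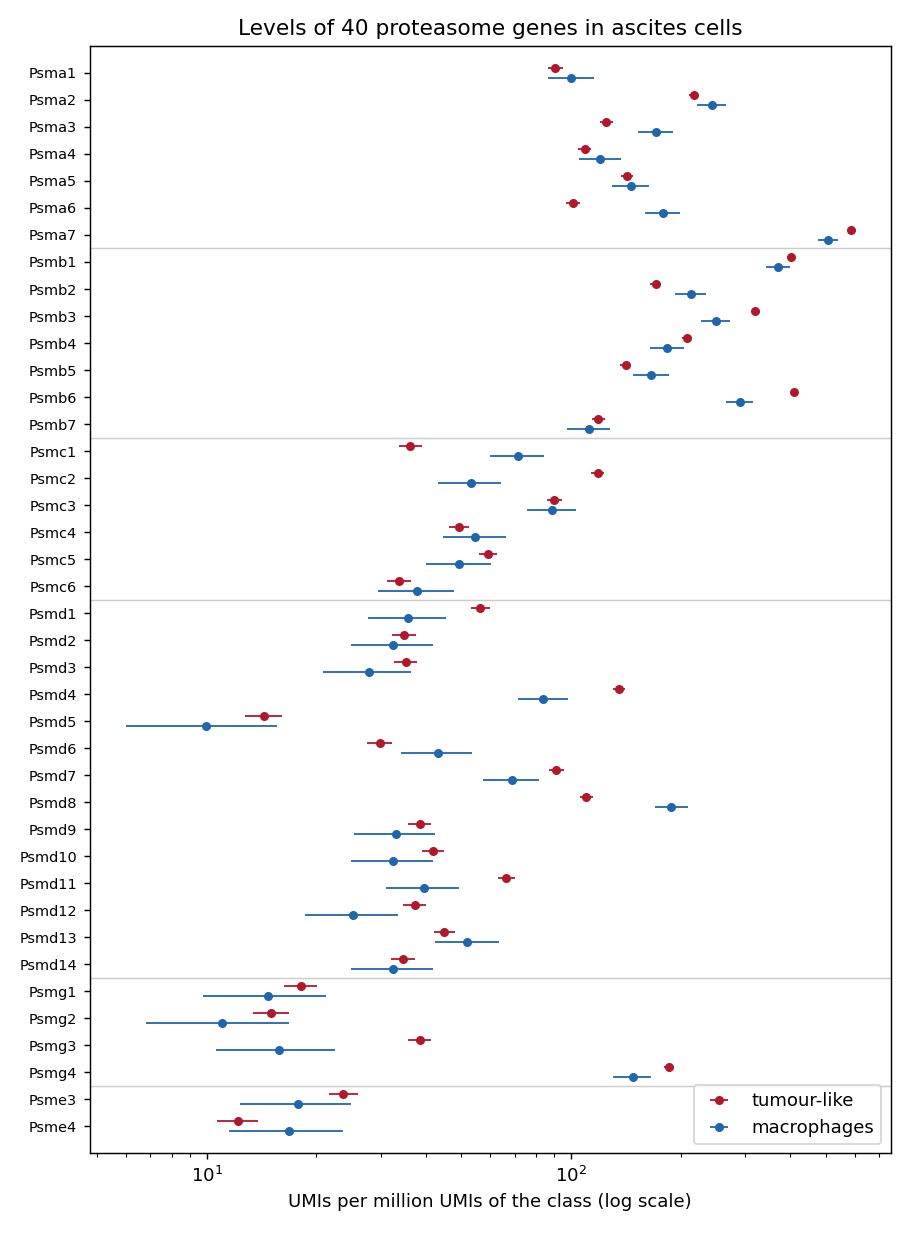
Level of each of the 40 genes in CPM (x axis, log scale) in tumour-like cells and macrophages, with genes down the y axis in the order alpha ring, beta ring, ATPases, non-ATPases, chaperones and activators. Points are class totals of 1 library and bars are exact Poisson 95% intervals; most pairs lie close together, while Psma6, Psmc1, Psmc2, Psmd8 and Psmg3 stand apart.

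**Figure D3:**
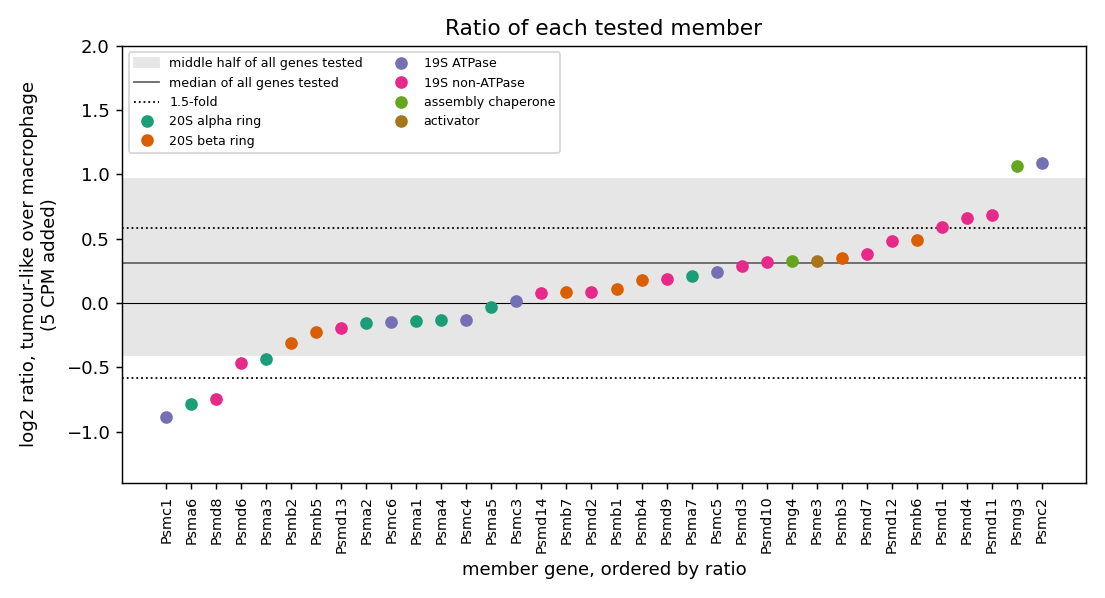
Log2 ratio of tumour-like cells over macrophages, with 5 CPM added (y axis), for the 36 members tested, ordered along the x axis and coloured by group. Dotted lines mark 1.5-fold, the grey line and band mark the median of 0.31 and the quartiles of 4003 genes; most members lie inside the band, with Psmc2 and Psmg3 above it and Psmc1, Psma6, Psmd8, Psmd6 and Psma3 below.

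The alpha ring, whose subunits form the gate of the barrel, was the one group with a summed level below that of macrophages. Its 7 genes stood at 1372 CPM in tumour-like cells and 1465 CPM in macrophages, a ratio of 0.936 (0.900 to 0.974). Psma7 had the most UMIs, 11744 in tumour-like cells and 967 in macrophages, or 587 and 507 CPM, a ratio of 1.16 (1.08 to 1.24). Psma6 was at 101 CPM in tumour-like cells and 178 CPM in macrophages, a ratio of 0.567 (0.505 to 0.637), and it was the sole alpha gene past 1.5-fold. Among all 4003 genes, 38.4% were over 1.5-fold higher and 21.1% lower. The ratio of Psma6 was 0.760 (0.533 to 1.06) in cells of 500 to 2000 UMIs, within 1.5-fold, and 0.615 (0.506 to 0.752) in cells of 2000 to 4000 UMIs. The other alpha genes had ratios between 0.733 for Psma3 and 0.975 for Psma5, so 6 of the 7 were below 1.

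In the beta ring, which carries the cutting sites, no gene passed 1.5-fold in either direction. Of all 4003 genes, 38.4% were past it on the higher side and 21.1% on the lower. The 7 genes together stood at 1768 CPM in tumour-like cells and 1585 CPM in macrophages, a ratio of 1.12 (1.08 to 1.16). Psmb6, the caspase-like subunit, had the highest ratio, with 8186 UMIs or 409 CPM in tumour-like cells and 553 UMIs or 290.2 CPM in macrophages, a ratio of 1.41 (1.29 to 1.54). Psmb5, the chymotrypsin-like subunit and the main target of proteasome inhibitor drugs, had 2820 UMIs or 141 CPM in tumour-like cells and 316 UMIs or 166 CPM in macrophages, a ratio of 0.851 (0.757 to 0.959). Psmb7, the trypsin-like subunit, was at 119 CPM in tumour-like cells and 112 CPM in macrophages, a ratio of 1.06 (0.923 to 1.23). The catalytic genes thus lay on both sides of 1. Of the beta genes without a cutting site, Psmb2 was lowest at a ratio of 0.801 (0.723 to 0.890), and Psmb1, Psmb3 and Psmb4 lay between 1.08 and 1.28.

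The Psmc genes, whose products form the ATPase ring of the cap with 1 copy of each, held the widest spread. Their sum was 387 CPM in tumour-like cells and 355 CPM in macrophages, a ratio of 1.09 (1.01 to 1.18). Psmc2 (ENSMUSG00000028932, protein-coding, chromosome 5 from 21785283 to 21803787 on GRCm38 in GENCODE M21) had 2365 UMIs or 118 CPM in tumour-like cells and 101 UMIs or 53.0 CPM in macrophages, a ratio of 2.23 (1.83 to 2.75). Psmc1 (ENSMUSG00000021178, protein-coding, chromosome 12 from 100110154 to 100123405) went the other way, with 724 UMIs or 36.2 CPM in tumour-like cells and 136 UMIs or 71.4 CPM in macrophages, a ratio of 0.507 (0.422 to 0.614). Psmc3, Psmc4, Psmc5 and Psmc6 had ratios between 0.891 and 1.20, and the interval of each included 1. Psmc2 thus made up 30.6% (29.6 to 31.6%) of the ATPase UMIs in tumour-like cells and 14.9% (12.3 to 17.9%) in macrophages, while Psmc1 made up 9.37% (8.73 to 10.04%) in tumour-like cells and 20.1% (17.2 to 23.3%) in macrophages.

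**Figure D4:**
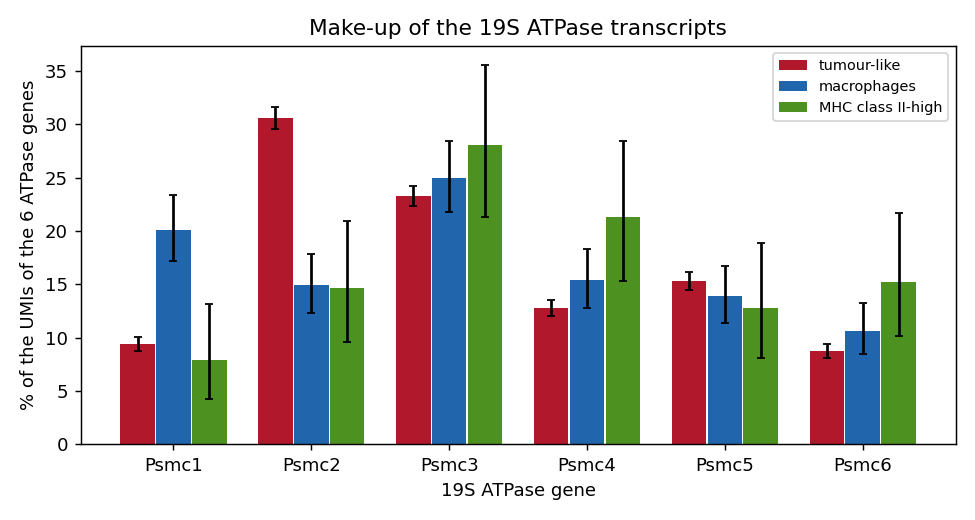
Share of the UMIs of the 6 ATPase genes held by each gene (y axis, percent) in tumour-like cells, macrophages and MHC class II-high cells, with exact binomial 95% intervals. Psmc2 holds 30.6% in tumour-like cells against 14.9% in macrophages, and Psmc1 9.37% against 20.1%.

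The Psmc2 ratio was higher at matched depths, though its intervals there overlapped the one over all cells. In cells of 500 to 2000 UMIs it stood at 184 CPM in tumour-like cells and 58.6 CPM in macrophages, a ratio of 3.14 (2.18 to 4.52). In cells of 2000 to 4000 UMIs it stood at 135 CPM in tumour-like cells and 42.0 CPM in macrophages, a ratio of 3.22 (2.25 to 4.74). Within tumour-like cells the Psmc2 level was lower in each deeper range, down to 94.7 CPM (83.3 to 107) in 219 cells of 10000 UMIs or more, and it was also higher in cells with more mitochondrial UMIs: 114 CPM (109 to 119) under 5%, 134 CPM (119.6 to 149.8) at 5 to 10% and 202 CPM (162 to 250) at 10 to 15%. Over the 3 mitochondrial ranges the summed level of the 40 genes lay between 4536 and 4686 CPM. Psmc3 was also lower in each deeper range, from 112 CPM to 80.1 CPM. Psmc4 was at 97.7 CPM at 500 to 2000 UMIs and between 46.9 and 49.9 CPM deeper, while Psmc1, Psmc5 and Psmc6 did not fall in each range. With rising mitochondrial share Psmc4 was at 47.8, 53.1 and 93.1 CPM and Psmc6 at 32.5, 40.7 and 41.9 CPM. Psmc3 was at 90.5, 87.4 and 76.8 CPM, and Psmc1 and Psmc5 were highest at 5 to 10%. The part of depth and mitochondrial share in the Psmc2 difference was not tested beyond these values. For Psmc1 the ratio was 0.645 (0.334 to 1.16) in the shallower cells and 0.396 (0.288 to 0.547) in those of 2000 to 4000 UMIs.

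The non-ATPase genes, which encode scaffold subunits, ubiquitin receptors and the deubiquitinase of the cap and, in Psmd5, Psmd9 and Psmd10, chaperones of its assembly, stood at 770.1 CPM in tumour-like cells and 705 CPM in macrophages, a ratio of 1.09 (1.03 to 1.16). Of the 13 tested, 3 were over 1.5-fold higher in tumour-like cells and 1 was lower, against 38.4% and 21.1% of all 4003 genes. Psmd4, a ubiquitin receptor, had the most UMIs, 2709 or 135 CPM in tumour-like cells and 160 or 84.0 CPM in macrophages, a ratio of 1.61 (1.38 to 1.90). Psmd11, a scaffold subunit of the lid, was at 66.3 CPM in tumour-like cells and 39.4 CPM in macrophages, a ratio of 1.69 (1.33 to 2.16). Psmd1, the large scaffold of the base, was at 56.4 CPM in tumour-like cells and 35.7 CPM in macrophages, a ratio of 1.58 (1.24 to 2.05) that lay just past the limit. With at most 10% mitochondrial UMIs, and with free RNA of 1 to 50 UMIs subtracted, it was 1.57 and, with 5 CPM added, no longer past it, and in cells of 3000 to 8000 UMIs it was 1.28. In cells of 500 to 2000 UMIs the intervals of all 3 included 1, with 41 or fewer UMIs each in tumour-like cells. Psmd8, another lid subunit, was lower, at 110.1 CPM in tumour-like cells and 188 CPM in macrophages, a ratio of 0.585 (0.523 to 0.655), and Psmd6 at 0.693 (0.549 to 0.884) was nearest to it. The deubiquitinase gene Psmd14 had a ratio of 1.06 (0.818 to 1.40).

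Assembly chaperone genes stood at 258 CPM in tumour-like cells and 189 CPM in macrophages, a ratio of 1.36 (1.23 to 1.52), the highest of the 6 groups. Psmg3 had 768 UMIs or 38.4 CPM in tumour-like cells and 30 UMIs or 15.7 CPM in macrophages, a ratio of 2.44 (1.70 to 3.64). In cells of 500 to 2000 UMIs the Psmg3 ratio was 1.98 (0.903 to 4.17), from 13 UMIs in tumour-like cells and 20 in macrophages. In cells of 2000 to 4000 UMIs it was 2.94 (1.54 to 6.30), with 10 UMIs in macrophages. In the 70 macrophages of 3000 to 8000 UMIs Psmg3 had 0 UMIs, against 514 UMIs in tumour-like cells of that depth, and was not tested there. Psmg4, the partner of Psmg3 in alpha-ring assembly, supplied most UMIs of the group, with 186 CPM in tumour-like cells and 147 CPM in macrophages, a ratio of 1.26 (1.12 to 1.43). Psmg1 had 363 UMIs in tumour-like cells and 28 in macrophages, and Psmg2 had 300 and 21. The activator gene Psme3 was at 23.7 CPM in tumour-like cells and 17.8 CPM in macrophages, with a ratio of 1.33 (0.938 to 1.94), and Psme4 was at 12.2 CPM in tumour-like cells and 16.8 CPM in macrophages.

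The catalytic genes differed far more between classes once their inducible partners were set beside them. Psmb8 stood at 38.1 CPM in tumour-like cells and 236 CPM in macrophages, a ratio of 0.161 (0.143 to 0.182). Psmb9 stood at 11.9 CPM in tumour-like cells and 82.9 CPM in macrophages, a ratio of 0.144 (0.117 to 0.177), and Psmb10 at 24.1 CPM in tumour-like cells and 121 CPM in macrophages, a ratio of 0.1998 (0.170 to 0.235). Of the UMIs of the 6 genes together, the inducible ones were 9.97% (9.49 to 10.5%) in tumour-like cells and 43.6% (41.4 to 45.9%) in macrophages. By pair, Psmb8 took 21.3% (19.9 to 22.6%) of the UMIs it shared with Psmb5 in tumour-like cells and 58.7% (55.2 to 62.3%) in macrophages. Psmb9 took 2.83% (2.48 to 3.20%) of those shared with Psmb6 in tumour-like cells and 22.2% (19.2 to 25.5%) in macrophages. Psmb10 took 16.9% (15.5 to 18.3%) of those shared with Psmb7 in tumour-like cells and 51.9% (47.2 to 56.7%) in macrophages. The inducible genes summed to 74.1 CPM in tumour-like cells, of which free RNA would give 6.30 CPM.

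**Figure D5:**
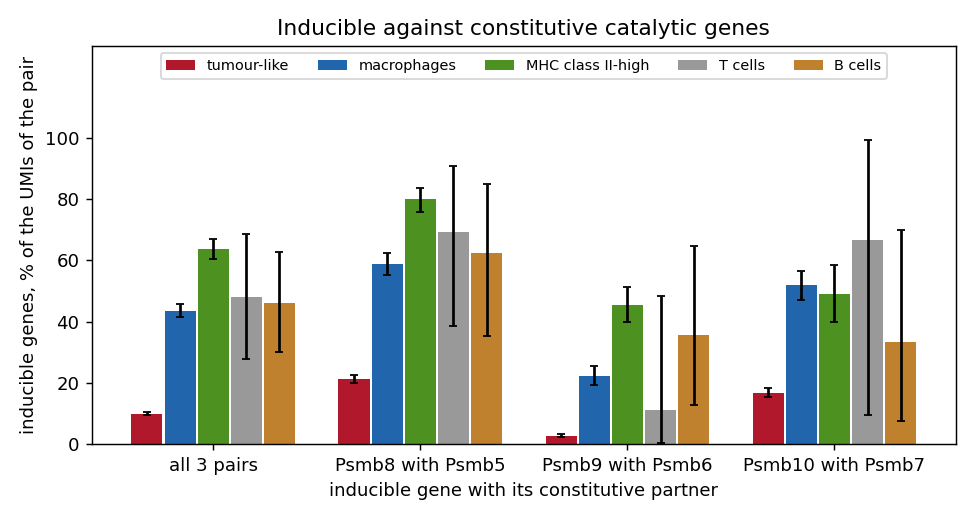
Inducible catalytic genes as a percentage of the UMIs of each inducible and constitutive pair (y axis) in tumour-like cells, macrophages, MHC class II-high cells, T cells and B cells, with exact binomial 95% intervals. For all 3 pairs together tumour-like cells are at 9.97%, macrophages at 43.6% and MHC class II-high cells at 63.6%; T and B cells rest on 25 and 39 UMIs.

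Values in another set of immune cells were set beside these. It held 521 cells with at least 10 UMIs of H2-Ab1, H2-Aa, H2-Eb1 and Cd74 and at most 1 each of the keratin set, the C1q set and the B cell set, and is called MHC class II-high. Dendritic cell markers were present in it, with Cd209a at 94.7 CPM and Ccr7 at 57.1 CPM, as was the plasma cell marker Jchain at 153 CPM. Its median depth was 1323 UMIs and its free RNA share was estimated at 16.2%. The 40 genes stood at 4591 CPM in tumour-like cells and 3449 CPM (3315 to 3588) in MHC class II-high cells, a ratio of 1.33 (1.28 to 1.39). The ATPase genes had a ratio of 1.69 (1.45 to 1.99) and the beta ring one of 1.21 (1.14 to 1.29). Of 35 members tested, 10 (28.6%) were over 1.5-fold higher in tumour-like cells and 0 were lower, against 45.4% and 16.5% of 3807 genes. The median log2 ratio was 0.45 over the members and 0.49 over all genes, so the members as a whole lay where most genes lay.

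Psmc2 was again higher, at 118 CPM in tumour-like cells against 33.4 CPM in MHC class II-high cells from 24 UMIs. Psmc1 stood at 36.2 CPM in tumour-like cells and 18.1 CPM in MHC class II-high cells from 13 UMIs, so of these 3 classes it was highest in macrophages. Psma6 was at 101 CPM in tumour-like cells and 72.4 CPM in MHC class II-high cells, and it too was highest in macrophages. Psmd7, a lid subunit, was at 91.0 CPM in tumour-like cells and 29.2 CPM in MHC class II-high cells, a ratio of 3.11, while its ratio over macrophages was 1.32. The inducible share was highest in MHC class II-high cells at 63.6% (60.3 to 66.8%), with Psmb8 at 494 CPM. In T cells, from 23 cells, the 40 genes stood at 4103 CPM (3272 to 5079), and in B cells, from 48 cells, at 3750.2 CPM (3181 to 4391). Both intervals overlapped that of macrophages, and that of T cells also overlapped that of tumour-like cells. Haemoglobin genes summed to 63241 CPM in B cells, 15673 CPM in MHC class II-high cells and 1368 CPM in T cells. Their part in the levels of the 40 genes was not tested.

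Related genes outside the constitutive set were read from a list of 31 symbols, of which 27 were in the matrix and 19 had a mean of at least 20 CPM. Of the 19, 5 were over 1.5-fold higher and 6 over 1.5-fold lower in tumour-like cells, beside the 38.4% and 21.1% of all genes. Nfe2l1 had the highest ratio, at 92.5 CPM in tumour-like cells and 24.7 CPM in macrophages, 3.75-fold (2.81 to 5.12), and it was 4.24-fold (2.60 to 7.38) in cells of 2000 to 4000 UMIs. Nfe2l2, the factor of the oxidative stress response, was at 128 CPM in tumour-like cells and 80.3 CPM in macrophages, a ratio of 1.60 (1.36 to 1.89). Adrm1, which encodes a further ubiquitin receptor of the cap, was at 76.7 CPM in tumour-like cells and 28.9 CPM in macrophages, a ratio of 2.66 (2.03 to 3.54). The shuttle factor Rad23b and the segregase Vcp, which bring substrates to the proteasome, had ratios of 1.74 (1.32 to 2.33) and 1.54 (1.33 to 1.79). In cells of 3000 to 8000 UMIs, with 70 macrophages, both were within 1.5-fold, Rad23b at 1.27 and Vcp at 1.28. Vcp was also within the limit at 2000 to 4000 UMIs, with 1.44, and Nfe2l2 under the stricter marker rule of 6 UMIs, with 1.44.

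Besides the 3 inducible catalytic genes, those past 1.5-fold on the lower side included Shfm1, which encodes the smallest subunit of the cap, and the ubiquitin-activating enzyme gene Uba1. Shfm1 was at 1079 CPM in tumour-like cells and 1726 CPM in macrophages, a ratio of 0.625 (0.603 to 0.649). Uba1 was at 28.7 CPM in tumour-like cells and 46.2 CPM in macrophages, a ratio of 0.622 (0.496 to 0.787), and it was within 1.5-fold in cells of 2000 to 4000 UMIs, at 0.658. Ubb, a polyubiquitin gene, was at 2006 CPM in tumour-like cells and 1484 CPM in macrophages, a ratio of 1.35 (1.30 to 1.40). The assembly factor Pomp had a ratio of 0.788 (0.730 to 0.850), and the interferon-inducible cap genes Psme1 and Psme2 had ratios of 0.806 (0.718 to 0.906) and 0.809 (0.728 to 0.9). Rps27a, which encodes ubiquitin fused to a ribosomal protein, had a ratio of 1.07 (1.05 to 1.09), and the deubiquitinase gene Uchl5 one of 0.821 (0.606 to 1.14). Usp14, another deubiquitinase gene, was under the 20 CPM mean, at 21.1 CPM in tumour-like cells and 12.6 CPM in macrophages. Ddi2, the protease that activates the Nfe2l1 protein, was also under it, with 90 UMIs or 4.50 CPM in tumour-like cells and 45 UMIs or 23.6 CPM in macrophages. The testis subunit gene Psma8 and the thymus subunit gene Psmb11 had 1 UMI each over both classes.

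Within tumour-like cells the proteasome was slightly higher in cells that carried cell cycle genes. In cells of 3000 to 10000 UMIs, the 40 genes stood at 4941 CPM in 154 cells with 3 or more UMIs of 7 cycle genes such as Mki67 and Top2a, and at 4519 CPM in 2429 cells with none, a ratio of 1.09 (1.06 to 1.12). The median depths were 7085 UMIs in cycling cells and 5117 UMIs in the others. By group, the alpha ring had a ratio of 1.15 (1.09 to 1.21), the non-ATPases 1.10 (1.03 to 1.18) and the beta ring 1.05 (1.004 to 1.10). The intervals of the ATPases at 1.07 (0.968 to 1.18), the chaperones at 1.08 (0.959 to 1.22) and the activators at 1.32 (0.962 to 1.76) included 1. Of 36 members tested, 0 were over 1.5-fold higher and 0 lower, against 8.91% and 5.84% of 4128 genes. Psmd7 was at 129 CPM in cycling cells and 87.4 CPM in the others, a ratio of 1.47 (1.22 to 1.76), and Psma7 at 668 CPM in cycling cells and 557 CPM in the others, a ratio of 1.20 (1.11 to 1.29). The rise was not shared by all members: 31 of the 40 ratios were above 1. Psmd10 had a ratio of 0.706 (0.481 to 1.003), Psmd6 of 0.796 (0.509 to 1.19) and Psmd4 of 0.856 (0.710 to 1.02). The median log2 ratio was 0.11 over the members tested and 0.03 over all genes.

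Tumour-like cells that differed in glutathione transferase genes had a proteasome ratio whose interval included 1. The 40 genes stood at 4585 CPM in 2407 cells with 10 or more UMIs of Gstm1 and Gstm2 and at 4369 CPM in 58 cells with 2 or fewer, a ratio of 1.05 (0.991 to 1.11). The median depths were 5499 UMIs in the first cells and 4179.5 UMIs in the second. Of 36 members tested, 1, Psmd4, was over 1.5-fold higher and 0 lower, against 13.5% and 10.6% of 4052 genes. In macrophages of 2000 to 8000 UMIs, the 40 genes stood at 4467 CPM in 305 cells with 3 or more UMIs of Pf4, Arg1 and Saa3 and at 3809.9 CPM in 10 cells with 1 or fewer, a ratio of 1.17 (0.950 to 1.46). The low side rests on 10 cells and 89 UMIs of the 40 genes. By group, the alpha ring had a ratio of 1.61 (1.06 to 2.58), and the intervals of the other 5 groups included 1. Of 33 members tested, 12 were over 1.5-fold higher and 9 lower in the cells with more of these genes, against 19.2% and 53.4% of 3936 genes. With so few UMIs on the low side, single UMIs can decide such a call, for members and for all genes. No result is read from these counts.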

How the data were processed

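The deposited matrix holds UMI counts of a 10x Genomics assay, per the labels and the file headers (27998 genes, 737280 barcodes, 35733776 UMIs, no selection of cells). Gene and barcode names come from other, deposited text lists that hold no measurement. Neither aligner, genome build nor counting settings, including the use of strand, are given in the sources used here. The bulk table has 8 columns of values that match no sample label and was not used.

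A level (CPM) is the UMIs of a gene in all cells of a class, divided by all UMIs of that class and scaled to 1000000. UMIs were not scaled by gene length, and capture can differ between genes, so levels are compared between classes for 1 gene or 1 group at a time. Intervals are exact Poisson for levels, exact Clopper-Pearson for shares and exact conditional binomial for ratios, at 95%; they cover counting error only. With 1 library there are no replicates and no p-values. Ratios used for 1.5-fold calls had 5 CPM added and a mean of at least 20 CPM over both classes; printed ratios have none added. Cells of the kept 6442 ranged from 500 to 19947 UMIs, with a median of 3300. Doublets were kept, as in the class rule; Scrublet (scanpy 1.11.5) marked 87 (1.35%), of which 34 were tumour-like and 0 macrophages. Another 99 cells met the C1q rule but held over 1 keratin-set UMI, at a median of 4139 UMIs, and were in neither class; 68 of them also met the keratin minimum, and whether they hold RNA of more than 1 cell was not tested. The share of free RNA was estimated from markers of the other class outside the rule, such as Lyz2 and Gstm1.

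Of the 40 members, 18 overlap another gene in GENCODE M21 (GRCm38), 9 on the same strand; Psma2, with AW209491, and Psmd13, with Sirt3 on the opposite strand, overlap genes of over 100 UMIs, as do Psmb7 with Nek6 and Psmc3 with Slc39a13. Promoters are RefSeq's on GRCm38.p6. Class rules, members and gene lists were chosen with earlier results of these data known. Full values were given for Psmb5, Psmb6 and Psmb7, for the highest and lowest ratio and most UMIs in each group, and levels or ratios for related genes of at least 20 CPM in a class, of which 3 that are in the counts are not reported here; other names were chosen after their values were seen. The class comparison was tested on simulated counts with counting error only, in which the changes set were larger than 1.5-fold. Changes near that limit were not covered. Tools were Python 3.11.15, numpy 2.4.6, scipy 1.17.1, pandas 2.3.3 and matplotlib 3.10.9.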

Additional observations from a re-analysis of the deposited data

Results flagged for a closer look

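Barcodes left out by the cell filter also carried proteasome transcripts, a signal in data that the comparisons did not use. In 474 barcodes of 500 or more UMIs with fewer than 200 genes, 83.4% of the UMIs were of haemoglobin genes, and the 40 genes stood at 857 CPM (777 to 943). Outside haemoglobin, their level there was 5167 CPM (4683 to 5687). Free RNA held the 40 genes at 4862 CPM in barcodes of 1 to 50 UMIs and at 6109 CPM in those of 100 to 200 UMIs. The part of free RNA in the level of the 474 barcodes was not tested. In 519 barcodes with over 15% mitochondrial UMIs the 40 genes stood at 4201 CPM (4052 to 4355).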

How the results depend on the processing

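No paired analysis was possible because the single-cell data are 1 library and the columns of the bulk table carry no sample label. For the same reason no replicate could be left out. Over the alternatives, the summed ratio of tumour-like cells over macrophages ranged from 1.02 to 1.09: it was 1.02 in cells of 3000 to 8000 UMIs, which held 70 macrophages, and 1.09 with free RNA of barcodes of 100 to 200 UMIs subtracted, an alternative chosen after seeing the data. In cells of 3000 to 8000 UMIs, 9 members were over 1.5-fold higher and 4 lower, against 38.7% and 24.1% of all genes. With the limit at 2-fold, 2 were higher (Psmc2 and Psmg3) and 0 lower, against 974 (24.3%) and 633 (15.8%) of all 4003 genes. Relative to the median of all genes, 2 were higher and 6 lower, against 27.3% and 28.2% of all genes. With no filter on low genes, 5 of the 40 members were higher and 3 lower, against 3963 (24.4%) and 1890 (11.6%) of 16253 genes. The inducible share of catalytic UMIs in tumour-like cells was 9.16% in cells of 3000 to 8000 UMIs and 8.69% in cells of 2000 to 4000 UMIs. In macrophages it was 49.4% in cells of 3000 to 8000 UMIs, 47.4% with free RNA of 1 to 50 UMIs subtracted and 48.4% with that of 100 to 200 UMIs. The ratio between high and low Gstm1 and Gstm2 cells was 0.898 in cells of 5000 to 8000 UMIs, which held 13 low cells. The Pf4 comparison could not be made in macrophages of 3000 to 6000 UMIs, since none was low. For these moves the cause was not tested. With at most 10% mitochondrial UMIs 4 members were higher, without Psmd1, against 38.3% of all genes. Psmc2 ranged from 2.20 to 3.22, Psmg3, with no ratio at 3000 to 8000 UMIs, from 2.44 to 3.07, Psmd4 from 1.58 to 2.13, Psmd11 from 1.69 to 2.82, Psmd1 from 1.28 to 2.03, Psmc1 from 0.395 to 0.511, Psma6 from 0.531 to 0.614 and Psmd8 from 0.495 to 0.586. No alternative took the cells of 500 to 2000 UMIs alone, which held 759 macrophages. There, Psmd4 was at 1.25, Psmd11 at 1.28, Psmg3 at 1.98, Psmc1 at 0.645, Psma6 at 0.760 and Psmd8 at 0.634. Each of these lay outside its range and nearer to 1, while Psmc2 at 3.14 and Psmd1 at 1.59 lay inside theirs. Of the related genes called higher, Nfe2l1 ranged from 3.65 to 4.64, Adrm1 from 1.88 to 3.59, Nfe2l2 from 1.44 to 1.89, Rad23b from 1.27 to 1.90 and Vcp from 1.28 to 1.67; Vcp also fell within the limit with at least 1000 UMIs, at most 10% mitochondrial UMIs or 6 marker UMIs. Of 632 single-gene and group values under alternatives, 615 kept their side of 1 and 0 with a 1.5-fold call changed it. Of the same 632 values, 64 lay outside the interval of the main value. The depth of macrophages limits members of few UMIs, such as Psmd5 with 19.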

Other observations

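In the 519 barcodes left out for over 15% mitochondrial UMIs, Psmc2 stood at 219.8 CPM (187 to 257), and in the 264 of these that met the tumour-like marker rule at 228 CPM (186 to 276). The kept tumour-like cells had 118 CPM. Of the other ATPase genes, Psmc4 was at 83.3 CPM (58.9 to 114) in those 264 barcodes and at 47.8 CPM (44.6 to 51.1) in tumour-like cells with under 5% mitochondrial UMIs. Psmc5 was at 98.6 CPM (71.9 to 132) in the same barcodes and at 57.4 CPM (53.9 to 61.1) in those cells. Psmc3 was at 103 CPM (75.7 to 137) in the same barcodes and at 90.5 CPM (86.1 to 95.1) in those cells. Psmc1 and Psmc6 were each at 43.8 CPM (26.8 to 67.7) in the same barcodes, and in those cells at 35.1 CPM (32.4 to 38.0) for Psmc1 and 32.5 CPM (29.9 to 35.3) for Psmc6.

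In barcodes of 100 to 200 UMIs the 40 genes stood at 6109 CPM, above every class described, against 4862 CPM in barcodes of 1 to 50 UMIs. The inducible share of the catalytic UMIs was 9.25% (8.62 to 9.91%) in the first and 13.9% (9.99 to 18.7%) in the second. Across the 40 genes, the order of levels was alike between classes: Spearman's rho was 0.92 between tumour-like cells and macrophages and 0.94 between tumour-like and MHC class II-high cells, as a description over genes of 1 library that share capture and free RNA.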
